A study of Drosophila melanogaster with 16 samples.

Results

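The genes described here encode the aminoacyl-tRNA synthetases of Drosophila melanogaster, followed in whole adult testes of 3 genotypes. They were chosen by name: a probe set of the array was a member if its platform annotation gave a single gene symbol built from the name of 1 or 2 amino acids and the ending RS, with or without -m for the mitochondrial form. This gave 34 of the 13966 probe sets, for 30 of 10843 named genes, 16 of them cytosolic (19 probe sets) and 14 mitochondrial (15 probe sets). No measured value entered the choice. Single-colour oligonucleotide arrays were hybridised with RNA of wild-type testes (5 arrays), of testes mutant for bgcn (5 arrays) and of testes with Os added to the bgcn mutation (6 arrays). The labels call the replicates biological and name no other allele, driver, strain or age, nor the way in which Os was added. Each bgcn sample pooled 750 testes and each other sample 150, so the number of testes and the bgcn genotype cannot be told apart.

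An aminoacyl-tRNA synthetase joins an amino acid to the tRNA that carries its anticodon, the step at which the genetic code is read into protein. The enzymes fall into class I and class II, which have unrelated catalytic folds, and several of them hydrolyse wrongly charged tRNA. Animal cells keep one set for translation in the cytosol and, encoded by other nuclear genes, a second set that is imported to charge the tRNAs of the mitochondrial genome. bgcn acts with bam to stop the mitotic divisions of spermatogonia, so a mutant testis fills with dividing early germ cells and lacks the spermatocytes and spermatids that make up most of a wild-type testis. Os is an older name of upd1, the ligand that activates JAK-STAT signalling in the stem cells of the testis tip. In spermatids the mitochondria fuse into a large body, the nebenkern, and then stretch along the growing tail.

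The name rule left some synthetases out. The cytosolic phenylalanine enzyme, built of the subunits alpha-PheRS and beta-PheRS, has probe sets in the table but symbols of another form. AspRS, MetRS and AlaRS-m were not analysed here. The gene table used for names holds no -m gene for glutamine, glycine, histidine, lysine or threonine. In animals the glycine and lysine enzymes of both compartments are known to come from a single gene each, and mitochondrial glutaminyl-tRNA is made by the amidotransferase GatCAB from tRNA that has first been charged with glutamate. Of the 30 genes, 3 lie on the X chromosome (ArgRS, HisRS and LysRS), 6 on 2L, 6 on 2R, 9 on 3L and 6 on 3R. The span of 15 of them overlaps that of another gene. The array names no strand for these values, so signal from such a partner was not separated.

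Values are the deposited signal intensities, and changes are differences of log2(signal + 18.8) between group means. The added 18.8 damps changes of dim probe sets, so a change read as a fold is understated for them. The fit was made with limma over all 16 arrays and 10422 probe sets whose signal passed 42.9 on at least 5 arrays, and a gene rose or fell if its Benjamini-Hochberg adjusted p, taken over all those probe sets, was under 0.05. A gene with more than 1 probe set is represented by the one with the highest mean log2 value. All 16 cytosolic genes and 12 of the 14 mitochondrial genes were tested. ArgRS-m and GluRS-m were too dim.

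Most of what is on these arrays differed between wild type and both mutants, and this is the background for every count below. Of all tested probe sets 69.8% passed in bgcn against wild type and 71.4% in Os+bgcn against wild type, beside 26 of the 28 tested synthetase genes in each. The medians of all tested probe sets were 0.46 in bgcn against wild type and 0.43 in Os+bgcn against wild type. With arrays centred on their medians these became 0.21 and 0.15, and centred on cytosolic ribosomal proteins -1.56 and -1.07. The share of called probe sets that were higher went from 67.6% to 3.11% in bgcn, and from 66.1% to 13.2% in Os+bgcn, when the ribosomal proteins were made the reference. Changes against wild type are therefore changes relative to the authors' scaling of each array. Both wild-type comparisons share the 5 wild-type arrays, so their likeness is no independent evidence. The summed signal of the spermatocyte and spermatid markers was 72430 to 79090 on wild-type arrays. It was 679.5 to 1285 on those of bgcn and 795.9 to 1081 on those of Os+bgcn. Among the 17 tested, 16 fell in each mutant, beside 22.6% of all tested probe sets in bgcn and 24.2% in Os+bgcn. Some, such as topi (means of 193, 5.66 and 8.28 in wild type, bgcn and Os+bgcn), passed the filter only through wild-type arrays. That count is therefore in part set by the filter. The 7 early germ cell markers summed to 149.3 to 273.7, 2810 to 3455 and 4565 to 5764 in the same order. Markers of other cells moved too, and their part in the synthetase values was not tested. In bgcn against wild type 8 of 10 tested muscle sheath markers rose (median 1.39), 6 of 6 for hemocytes (1.88), 4 of 5 for the cyst lineage (1.43) and 2 of 4 for fat body (1.32), while 1 of the 13 listed genes of accessory gland and ejaculatory duct fell (median 0.63). In Os+bgcn against wild type 12 of those 13 fell (median -1.81), while 3 of 10, 3 of 6, 4 of 5 and 1 of 4 rose in the other lists, with 1 fat body marker lower. On wild-type, bgcn and Os+bgcn arrays the summed muscle sheath signals spanned 2913 to 3413, 4409 to 6794 and 2772 to 4486, and those of hemocytes 508.5 to 579.6, 1723 to 2339 and 874.1 to 1652. In whole testes, fewer cells of a type and less RNA per cell cannot be told apart.

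Cytosolic synthetase transcripts were higher in both mutants than in wild type under the authors' scaling, but not in bgcn when arrays were centred on cytosolic ribosomal proteins. In bgcn 15 of the 16 genes rose, TrpRS did not pass and no change was negative. Of all tested probe sets 47.2% rose in that comparison and 22.6% fell. The median change of the 16 genes was 1.84, from 0.26 to 3.22, beside 0.46 for all tested probe sets, and all 15 rose by at least 2-fold, as 32.8% of probe sets did. Of the 16, 6 (AlaRS, ArgRS, CysRS, GlyRS, LeuRS and ValRS) had a wild-type array at or below 42.9 and needed their mutant arrays to pass the filter, so their rise is in part set by it. Among the other 10, 9 rose in bgcn and 10 in Os+bgcn, with medians of 1.72 and 2.09. The arrays of 12 genes lay wholly above wild type, as for 35.3% of probe sets. In Os+bgcn all 16 rose, where 47.3% of probe sets rose and 24.2% fell, with a median of 2.32 and a range of 0.51 to 3.47 beside 0.43. In this comparison 15 rose by at least 2-fold (34.1% of probe sets), and the arrays of all 16 were wholly above wild type, as for 37.9% of probe sets. Centring on array medians gave medians of 1.60 and 2.04. Centring on cytosolic ribosomal proteins gave -0.17 in bgcn, with 2 genes higher and 4 lower, and 0.82 in Os+bgcn, with 9 higher and 1 lower. With that centring 7944 of the 10422 probe sets passed in bgcn, 3.11% of them higher, and 7046 in Os+bgcn, 13.2% of them higher.

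**Figure D1:**
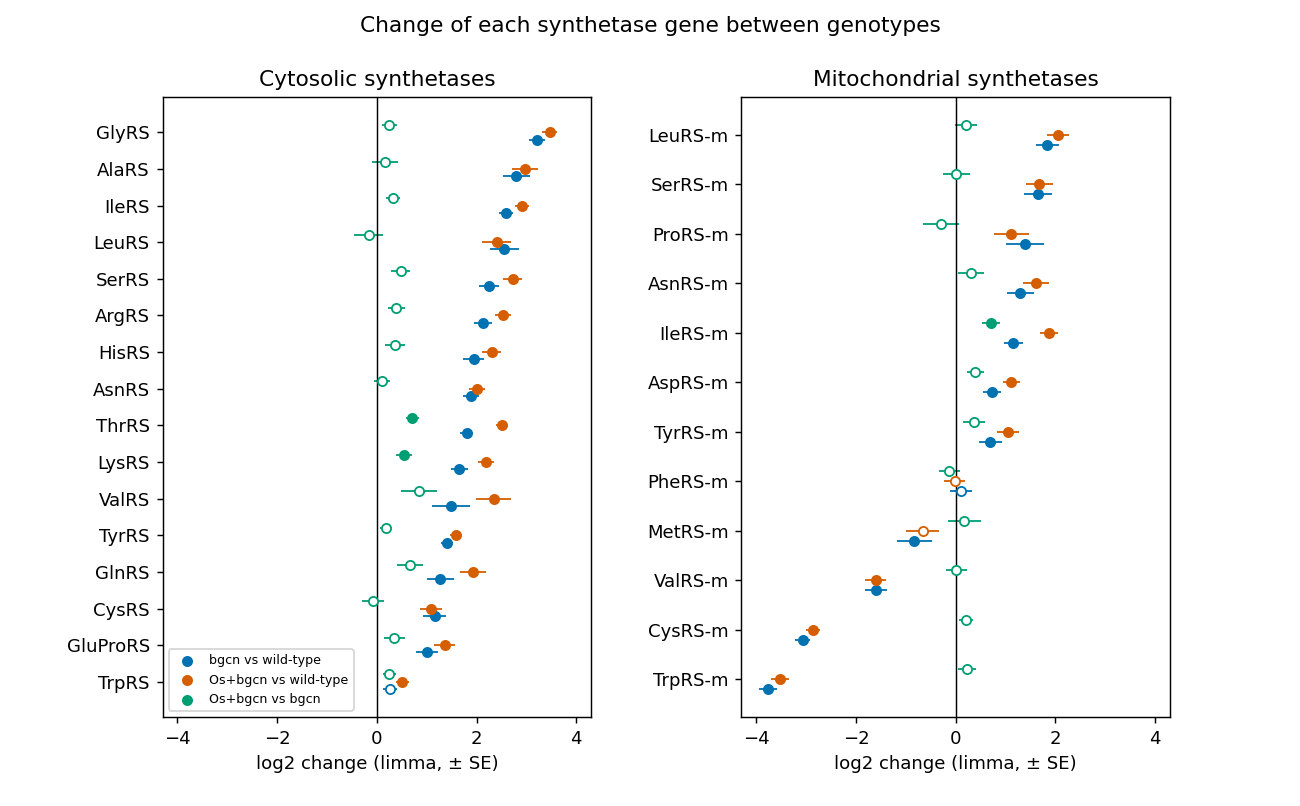
Log2 change of each tested synthetase gene (x axis, log2 of signal + 18.8) with its limma standard error, cytosolic genes at the left and mitochondrial genes at the right, for bgcn against wild type (blue), Os+bgcn against wild type (orange) and Os+bgcn against bgcn (green); filled points had an adjusted p under 0.05. Under the authors' scaling the blue and orange points of the cytosolic panel lie to the right of 0, while in the mitochondrial panel CysRS-m, TrpRS-m and ValRS-m lie to the left; with arrays centred on cytosolic ribosomal proteins the bgcn medians of both panels became -0.17 and -1.31.

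GlyRS, a class II enzyme, had the largest cytosolic change. Its signal was 41.7, 33.7, 55, 30 and 49.7 on the wild-type arrays, 706, 402, 584, 557 and 508 on the bgcn arrays and 544 to 806 (median 649.7) on the Os+bgcn arrays. The highest wild-type array, at 55, lay below the lowest mutant array, at 402, and the mutants overlapped each other. GlyRS rose by 3.22 ± 0.16 (adjusted p = 5.1e-13) in bgcn and by 3.47 ± 0.15 (adjusted p = 6.7e-14) in Os+bgcn, and 99.2% of tested probe sets had a lower change in bgcn.

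AlaRS is the class II enzyme known for recognising its tRNA by a base pair in the acceptor stem. It read 84.4, 81.5, 26.4, 36.6 and 25.5 in wild type, 393, 327, 610.3, 342 and 562 in bgcn and 349 to 753 (median 481) in Os+bgcn. No mutant array overlapped a wild-type one, while the wild-type arrays themselves fell into 2 brighter and 3 dimmer ones. The change was 2.80 ± 0.27 (adjusted p = 1.2e-08) in bgcn and 2.97 ± 0.26 (adjusted p = 2.2e-09) in Os+bgcn.

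IleRS, LeuRS and ValRS are the class I enzymes that charge branched-chain amino acids and carry an editing domain. The IleRS signal was 60.7, 44, 46.6, 55.5 and 70.7 in wild type, 563, 404, 429, 434 and 330.1 in bgcn and 493 to 613 (median 528) in Os+bgcn, with no overlap of either mutant with wild type. IleRS rose by 2.59 ± 0.14 (adjusted p = 2.2e-12) and 2.92 ± 0.14 (adjusted p = 1.4e-13). LeuRS, which in mammals also serves as a leucine sensor for TORC1, was at 94, 38.6, 62.2, 46.6 and 52.8 in wild type, 932, 461, 319, 395 and 257 in bgcn and 269.5 to 746 (median 331) in Os+bgcn. Here bgcn array 1 stood highest of all. LeuRS rose by 2.56 ± 0.30 (adjusted p = 2.3e-07) and 2.40 ± 0.29 (adjusted p = 2.6e-07), and its second probe set gave a smaller rise of 1.59 (adjusted p = 7.5e-07) and 1.78 (adjusted p = 6.7e-08). ValRS was near the bottom of the scale in wild type, at 2.5, 2.2, 10.9, 11.8 and 2.4, against 4.1, 40.2, 114, 129 and 38.7 in bgcn and 67.6 to 169 (median 106) in Os+bgcn. The bgcn array at 4.1 lay among the wild-type arrays, so only Os+bgcn was clear of wild type. ValRS rose by 1.49 ± 0.38 (adjusted p = 0.0016) in bgcn and by 2.34 ± 0.36 (adjusted p = 7.9e-06) in Os+bgcn.

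SerRS and ThrRS are class II enzymes that charge the hydroxyl amino acids. SerRS signals were 71, 132, 132, 95.4 and 83.2 in wild type, 328, 505, 814, 718 and 498 in bgcn and 679 to 822 (median 785) in Os+bgcn, and neither mutant overlapped wild type. SerRS rose by 2.25 ± 0.20 (adjusted p = 3.5e-09) and 2.73 ± 0.19 (adjusted p = 7.4e-11). Its other probe set, at 11.8 to 101.9 in wild type and 22.8 to 183 in bgcn, did not pass in either comparison (0.33, adjusted p = 0.57, and 0.34, adjusted p = 0.55), so the rise of SerRS rests on 1 of its 2 probe sets. ThrRS read 206, 171, 182, 178 and 193 in wild type, 577, 632, 769, 777 and 734 in bgcn and 976 to 1405 (median 1120.3) in Os+bgcn. All 3 groups were separate from each other. ThrRS rose by 1.80 ± 0.13 (adjusted p = 1.9e-10) in bgcn and by 2.51 ± 0.13 (adjusted p = 4.2e-13) in Os+bgcn.

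In mammals a multisynthetase complex holds the arginine, glutamine, glutamate-proline, isoleucine, leucine and lysine enzymes among others. All 6 of their fly genes rose in both comparisons, with medians of 1.89 and 2.30, beside medians of 1.84 and 2.32 over the other 10 cytosolic genes. LysRS, a class II enzyme, was at 96.6, 83.3, 104, 119.8 and 88 in wild type, 329, 308, 394, 355 and 354 in bgcn and 316 to 718 (median 538) in Os+bgcn, and rose by 1.65 ± 0.17 (adjusted p = 3e-08) and 2.19 ± 0.16 (adjusted p = 1.8e-10). The wild-type arrays were below all others. GluProRS, which joins the glutamate and proline enzymes in 1 protein, had 124, 78.1, 90.3, 44.6 and 199 in wild type, 223, 192, 224, 212 and 228 in bgcn and 260.2 to 312 (median 269) in Os+bgcn. The wild-type arrays were widely spread and the highest, at 199, overlapped bgcn. GluProRS rose by 1.01 ± 0.22 (adjusted p = 0.00043) and 1.36 ± 0.21 (adjusted p = 9.2e-06). ArgRS had mean signals of 48.5 ± 13.5 (SD, n = 5) in wild type, 278 ± 65 (n = 5) in bgcn and 368 ± 62.2 (n = 6) in Os+bgcn and rose by 2.13 ± 0.18 (adjusted p = 1.6e-09) and 2.53 ± 0.17 (adjusted p = 4.8e-11). GlnRS had 91.16 ± 24 (SD, n = 5) in wild type, 262 ± 106 (n = 5) in bgcn and 406 ± 120 (n = 6) in Os+bgcn and rose by 1.27 ± 0.27 (adjusted p = 0.00034) and 1.93 ± 0.26 (adjusted p = 1.4e-06), although bgcn array 1, at 104, lay within the wild-type range.

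AsnRS, CysRS, HisRS, TyrRS and TrpRS complete the cytosolic set. AsnRS, a class II enzyme, was at 126, 131, 149, 176 and 149.8 in wild type, 405, 506, 769, 613 and 727 in bgcn and 502 to 795 (median 641) in Os+bgcn, without overlap of wild type and mutants, and rose by 1.89 ± 0.16 (adjusted p = 2.6e-09) and 2.00 ± 0.16 (adjusted p = 4.6e-10). HisRS, with means of 102 ± 25.5 (SD, n = 5) in wild type, 454 ± 147 (n = 5) in bgcn and 576 ± 129 (n = 6) in Os+bgcn, rose by 1.94 ± 0.21 (adjusted p = 8e-08) and 2.30 ± 0.20 (adjusted p = 2.9e-09). CysRS was dim in every group, at 2.7, 29.4, 30.6, 22.6 and 12 in wild type, 54.4, 70.3, 57.9, 55.3 and 79.3 in bgcn and 40.8 to 88.7 (median 58) in Os+bgcn. Its mutant arrays nevertheless all stood above the wild-type ones, and CysRS rose by 1.16 ± 0.23 (adjusted p = 0.00018) and 1.08 ± 0.22 (adjusted p = 0.00023). The suffix of its probe set marks it as able to detect more than 1 transcript. Both LeuRS probe sets carry a suffix too, the second the same one and the first, which represents the gene, another. What their probes detect was not examined.

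TyrRS, a class I enzyme, was at 348, 324, 295, 378 and 339.6 in wild type, 730.3, 942, 909.8, 953 and 1075 in bgcn and 864 to 1154 (median 1103) in Os+bgcn. The groups of mutants lay clear of wild type, and TyrRS rose by 1.40 ± 0.12 (adjusted p = 4.3e-09) and 1.58 ± 0.12 (adjusted p = 2.9e-10). Its second probe set gave 0.76 (adjusted p = 0.041) and 0.62 (adjusted p = 0.079). TrpRS showed the smallest change of the cytosolic set. Its signal was 260.3, 248, 236, 239 and 240.4 in wild type, 205, 305, 328, 349 and 317 in bgcn and 312 to 419 (median 354) in Os+bgcn. A single bgcn array, number 1, was below the wild-type range and the other 4 were above it. TrpRS differed by 0.26 ± 0.14 (adjusted p = 0.095) in bgcn, which did not pass, and rose by 0.51 ± 0.13 (adjusted p = 0.0014) in Os+bgcn. Without bgcn array 1 it passed in bgcn at 0.38 (adjusted p = 0.0060), and with arrays centred on their medians it no longer passed in Os+bgcn, at 0.23 (adjusted p = 0.13), nor with the accessory gland median as a covariate, at 0.39 (adjusted p = 0.079).

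**Figure D2:**
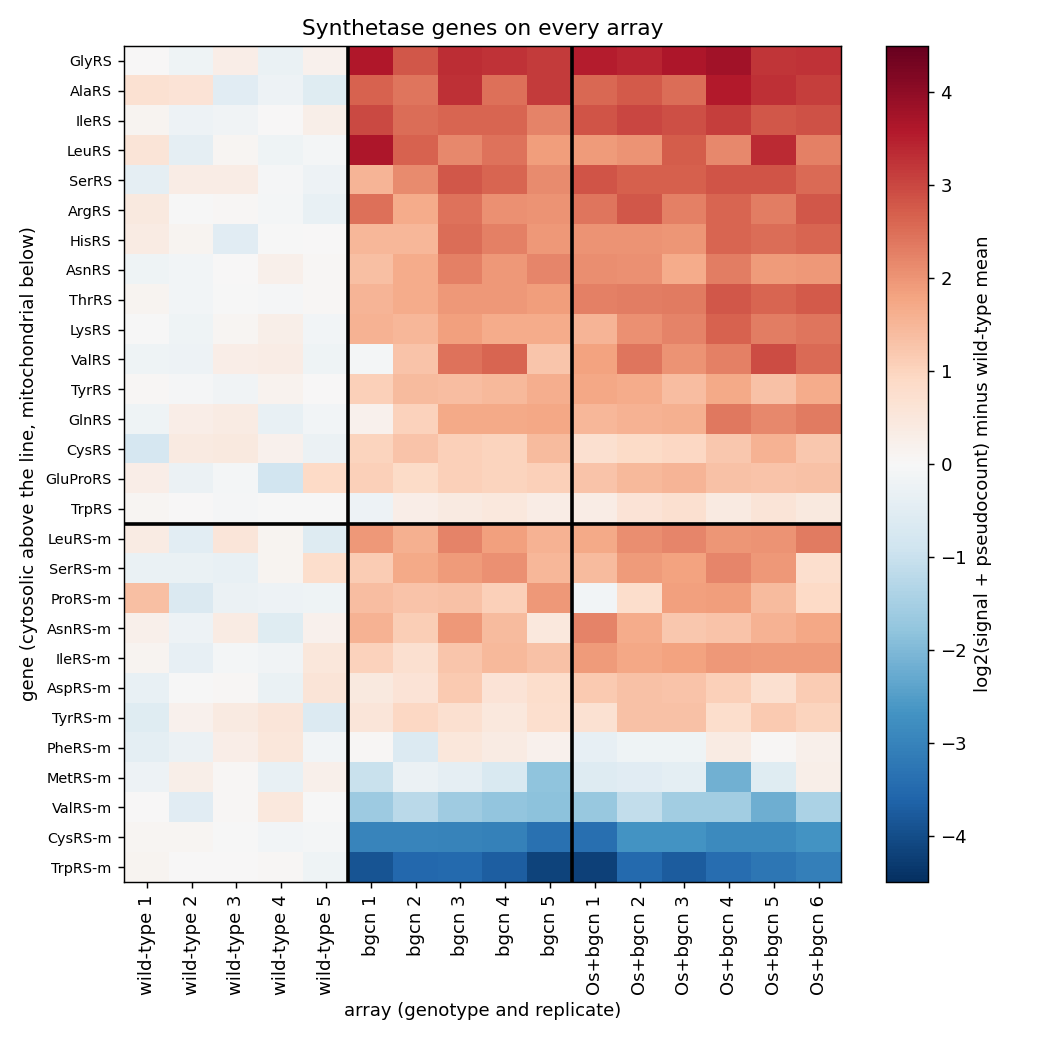
Each row is a tested synthetase gene and each column an array, grouped by genotype with vertical lines; colour gives log2(signal + 18.8) minus the gene's wild-type mean, red higher and blue lower. Cytosolic rows above the horizontal line are mostly red in both mutants under the authors' scaling (centring on cytosolic ribosomal proteins turned their bgcn median to -0.17), and CysRS-m, TrpRS-m and ValRS-m are blue on every mutant array.

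Mitochondrial synthetases went in both directions, in shares not far from those of all tested probe sets. In bgcn 7 of the 12 tested genes rose (47.2% of probe sets), 4 fell (22.6%) and PheRS-m did not pass, with a median change of 0.71 and a range of -3.76 to 1.84. In Os+bgcn 7 rose (47.3%), 3 fell (24.2%), and MetRS-m and PheRS-m did not pass, with a median of 1.08 and a range of -3.53 to 2.05. Centred on cytosolic ribosomal proteins, none of the 12 rose in either comparison by limma (0 also at an unadjusted p under 0.05). In bgcn 8 fell and in Os+bgcn 5, and the medians were -1.31 and -0.41. Most called probe sets were lower there too: 7944 of 10422 passed in bgcn, 3.11% of them higher, and 7046 in Os+bgcn, 13.2% of them higher. The division into higher and lower genes therefore holds only for the authors' scaling and those close to it. Of the 12, 6 had a wild-type array at or below 42.9 and needed their mutant arrays to pass the filter. All 6 rose, so the count of rising genes is in part set by the filter. ValRS-m needed its wild-type arrays to pass, so the count of falling genes is too. Without the filter all 14 genes were tested, and 7 rose and 4 fell in bgcn, 9 rose and 3 fell in Os+bgcn.

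The 3 mitochondrial genes that fell in both mutants charge tryptophan, cysteine and valine, all class I enzymes. TrpRS-m read 1557, 1420.3, 1421, 1462 and 1229 on the wild-type arrays, 78.6, 105, 108, 90.4 and 60.1 on the bgcn arrays and 59.7 to 152 (median 110.0) on the Os+bgcn arrays. Every wild-type array was at least 1229 and every mutant array at most 152.3. TrpRS-m fell by 3.76 ± 0.18 on the log2 scale (adjusted p = 4.0e-13) in bgcn and by 3.53 ± 0.18 (adjusted p = 4.1e-13) in Os+bgcn, a 13.5-fold and an 11.6-fold drop. Of all tested probe sets 5.99% had a lower change in bgcn, so a fall of this size was not rare on these arrays.

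CysRS-m was at 871, 865, 809.7, 751 and 761 in wild type, 86.3, 85.7, 83.7, 82.5 and 62.3 in bgcn and 60.2 to 110.3 (median 102) in Os+bgcn. The wild-type arrays were narrowly grouped and far above both mutants, which overlapped each other. CysRS-m fell by 3.07 ± 0.15 (adjusted p = 2.7e-13) in bgcn and by 2.86 ± 0.14 (adjusted p = 3.2e-13) in Os+bgcn. Its span overlaps that of CG13016, whose own probe set had 105 ± 43.1 (SD, n = 5) in wild type, 238 ± 25.7 (n = 5) in bgcn and 262 ± 76.7 (n = 6) in Os+bgcn, the opposite order. ValRS-m was dimmer, at 99.1, 63, 102, 144 and 95.6 in wild type, 19.1, 32, 19.8, 15.3 and 14 in bgcn and 6.6 to 34.8 (median 20.9) in Os+bgcn. No mutant array reached the lowest wild-type array, and most mutant values were near the added 18.8. ValRS-m fell by 1.60 ± 0.22 (adjusted p = 2.1e-06) in bgcn and by 1.60 ± 0.21 (adjusted p = 1.1e-06) in Os+bgcn. The spans of TrpRS-m and ValRS-m overlap no other gene.

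MetRS-m charges the methionine tRNA of mitochondria. Its brighter probe set had 131, 192, 162, 119 and 187 in wild type, 68.9, 126, 111, 90.9 and 31.5 in bgcn and 19.9 to 190.1 (median 103) in Os+bgcn. The highest bgcn array and the lowest wild-type array overlapped. It fell by 0.83 ± 0.35 in bgcn (adjusted p = 0.039) and differed by -0.66 ± 0.33 (adjusted p = 0.081) in Os+bgcn. The second probe set went the other way, with mean signals of 25.6, 68.5 and 89.6 in wild type, bgcn and Os+bgcn, a rise of 1.06 (adjusted p = 0.0013) and of 1.36 (adjusted p = 6.6e-05). The direction of MetRS-m therefore depends on the probe set, and the first no longer passed in bgcn without bgcn array 1 or 5 or without wild-type array 2, 3 or 5 (-0.82 to -0.59, limma adjusted p from 0.065 to 0.13), nor with no pseudocount (-1.01, adjusted p = 0.062) or with the accessory gland covariate (-0.77, adjusted p = 0.063).

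Among the 7 mitochondrial genes that rose, LeuRS-m, AsnRS-m, IleRS-m, SerRS-m and ProRS-m did so by at least 2-fold in both mutants. LeuRS-m, of class I, read 26.3, 5.8, 31.7, 18.9 and 4.5 in wild type, 114, 86.5, 144, 104 and 83.8 in bgcn and 92.9 to 156 (median 124) in Os+bgcn. No array of a mutant fell within the wild-type range, and the rise was 1.84 ± 0.23 (adjusted p = 5e-07) and 2.05 ± 0.22 (adjusted p = 5e-08). IleRS-m, also of class I, was at 26.2, 13.2, 20.5, 18.7 and 40.3 in wild type, 65.8, 50.2, 80.7, 96.1 and 86.1 in bgcn and 121 to 143 (median 138) in Os+bgcn. All 3 groups were separate, with IleRS-m higher by 1.16 ± 0.19 (adjusted p = 1.9e-05) in bgcn and 1.87 ± 0.18 (adjusted p = 1.4e-08) in Os+bgcn. Its span overlaps IntS9, whose mean signals were 18.4, 74.5 and 90.4 in the same order.

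AsnRS-m, a class II enzyme, had 22.3, 10.6, 26, 5 and 20.7 in wild type, 83.3, 55.6, 117, 74.8 and 29.2 in bgcn and 61.9 to 145 (median 87.8) in Os+bgcn. The lowest bgcn array, at 29.2, was just above the highest wild-type array, and AsnRS-m rose by 1.30 ± 0.27 (adjusted p = 0.00025) and 1.62 ± 0.26 (adjusted p = 1.3e-05). SerRS-m, whose fly paralogue Slimp has lost charging activity, was at 12.8, 12.2, 11.5, 23.6 and 48.4 in wild type, 66.8, 108, 125, 140.2 and 89.6 in bgcn and 45.9 to 157 (median 122) in Os+bgcn. A wild-type array at 48.4 overlapped Os+bgcn. SerRS-m rose by 1.66 ± 0.28 (adjusted p = 2.4e-05) and 1.68 ± 0.27 (adjusted p = 1.2e-05).

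ProRS-m, of class II, read 80.6, 6, 13.2, 13.9 and 14.9 in wild type, 82.4, 75.8, 78.2, 61.9 and 131 in bgcn and 16.5 to 124 (median 69.3) in Os+bgcn. Wild-type array 1 stood far above the other 4 and within both mutant ranges. ProRS-m rose by 1.40 ± 0.38 (adjusted p = 0.0026) and 1.12 ± 0.36 (adjusted p = 0.0093), the latter at 1.13 with the accessory gland median as a covariate (adjusted p = 0.071), which did not pass. AspRS-m and TyrRS-m changed least among those that rose. AspRS-m, of class II, had 105, 137, 143, 109 and 214 in wild type, 191, 223, 335, 223 and 249 in bgcn and 236 to 370 (median 331) in Os+bgcn, and rose by 0.73 ± 0.18 (adjusted p = 0.0013) and 1.12 ± 0.17 (adjusted p = 7.9e-06). A wild-type array, at 214, overlapped bgcn. TyrRS-m, of class I, was at 14.5, 37.4, 45.8, 51.8 and 13.2 in wild type, 52.9, 73.6, 61.4, 49.6 and 63.7 in bgcn and 60.2 to 103 (median 85) in Os+bgcn, with the highest wild-type array, at 51.8, inside the bgcn range. It rose by 0.69 ± 0.23 (adjusted p = 0.013) and 1.05 ± 0.22 (adjusted p = 3e-04). Its call in bgcn was lost with quantile normalization, at 0.55 (adjusted p = 0.058), and with median centring, at 0.44 (adjusted p = 0.10).

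PheRS-m, a single-chain enzyme unlike its cytosolic counterpart, passed in neither comparison. Its signal was 138, 162, 248, 286 and 179.6 in wild type, 202, 121, 289, 261 and 229 in bgcn and 147 to 259.8 (median 185) in Os+bgcn, and the 3 groups overlapped. It differed by 0.11 ± 0.22 (adjusted p = 0.68) and -0.02 ± 0.21 (adjusted p = 0.94). ArgRS-m, not tested, had 5.1, 4.4, 28.3, 27 and 10.5 in wild type, 42.9, 7.9, 51.4, 31.1 and 9.1 in bgcn and 10.5 to 51 (median 41.6) in Os+bgcn, with overlap throughout. GluRS-m, which in many organisms also supplies the glutamate-charged tRNA that GatCAB converts, was not tested either. It was at 10.9, 1.8, 5.1, 2.2 and 2.4 in wild type, 2.6, 2.8, 3.2, 2.3 and 23.6 in bgcn and 13.8 to 37.5 (median 25.7) in Os+bgcn. Each Os+bgcn array was above each wild-type array, and a single bgcn array, number 5, was as bright as the Os+bgcn arrays.

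By catalytic class, the 4 mitochondrial genes that fell in bgcn were among the 7 tested of class I, of which 3 rose, with a median of -0.83. That median is the value of MetRS-m itself, and with its other probe set the class I median became 0.69 in bgcn and 1.05 in Os+bgcn, with 4 higher and 3 lower in each, so the sign of the class I median rests on that probe set. Of the 5 tested of class II, 4 rose, with PheRS-m at 0.11 and a median of 1.30, the value of AsnRS-m. AsnRS-m, ProRS-m and SerRS-m needed their mutant arrays to pass the filter, as did the 3 class I genes that rose. These rises are therefore in part set by the filter. ValRS-m needed its wild-type arrays to pass, so its fall is too. In Os+bgcn the class I genes had a median of -0.66, again that of MetRS-m, with 3 higher and 3 lower, and the class II genes 1.12 with 4 higher. Among cytosolic genes class I had a median of 1.44 in bgcn with 7 of 8 higher, and class II 1.94 with all 7 higher. As background, 47.2% of all tested probe sets rose and 22.6% fell in bgcn, beside 47.3% and 24.2% in Os+bgcn. The directions given for the classes hold under the authors' scaling, and the difference between classes was not tested.

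**Figure D3:**
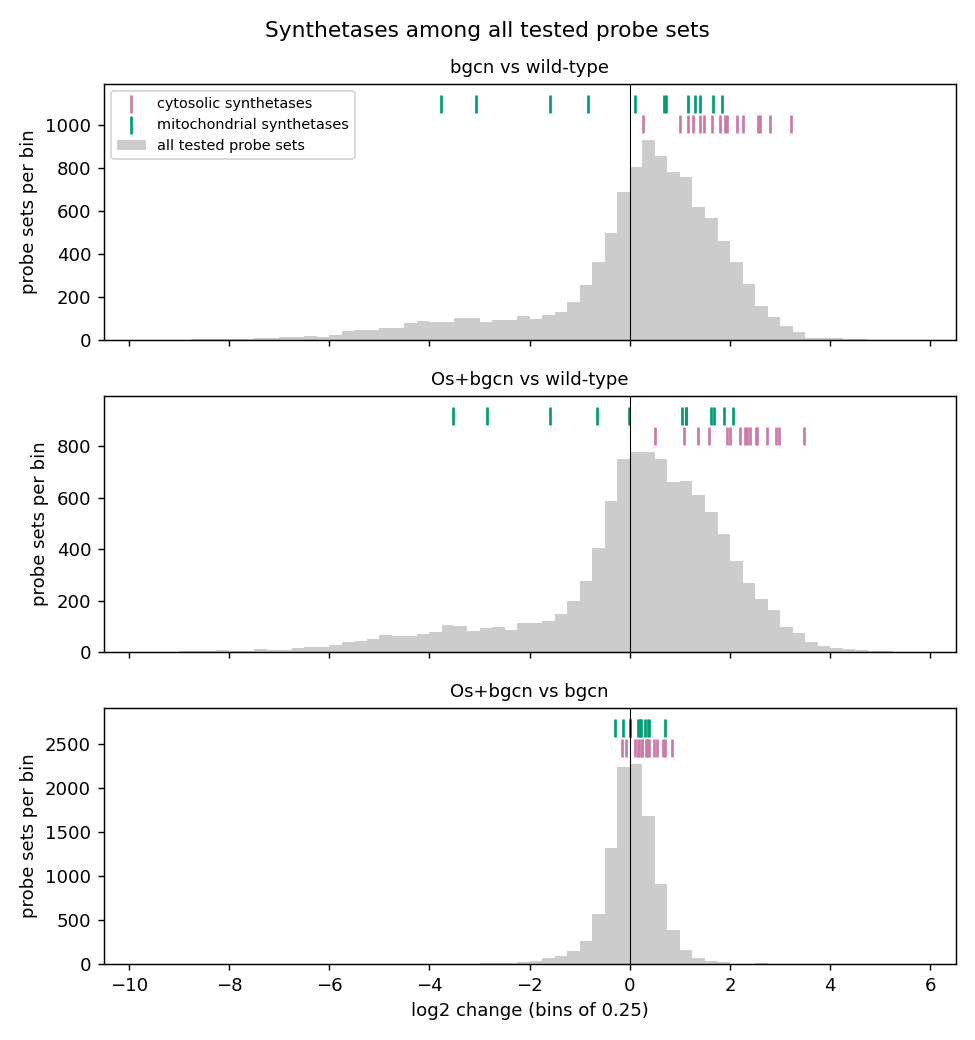
Grey bars count tested probe sets by log2 change in bins of 0.25 for the 3 comparisons from top to bottom, and the ticks above mark the cytosolic and the mitochondrial synthetase genes. In the upper panels the cytosolic ticks other than TrpRS lie to the right of most of the distribution, and TrpRS-m and CysRS-m in its left tail. TrpRS lies near the middle, with 42.7% of probe sets lower in bgcn and 52.8% in Os+bgcn. In the lowest panel all ticks lie between -0.29 and 0.84.

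For 9 amino acids both a cytosolic and a mitochondrial gene were tested, with GluProRS standing for proline. A shift added to all log2 values of an array cancels in the within-array difference, but scaling the signals before 18.8 is added does not cancel for dim genes such as ValRS and CysRS. Its shift between genotypes was tested per pair with a two-sided exact permutation test over arrays, 27 tests in all with adjustment over the 27. The levels of the members of a pair were not compared with each other, since they come from different probe sets. Of the pair members, CysRS, LeuRS, ValRS, AsnRS-m, IleRS-m, LeuRS-m, ProRS-m, SerRS-m and TyrRS-m needed their mutant arrays to pass the filter. ValRS-m needed its wild-type arrays to pass it. The shifts of all these pairs are therefore in part set by the filter.

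The shift toward the cytosolic gene was 3.10 or more for the tryptophan, cysteine and valine pairs. CysRS and ValRS needed their mutant arrays to pass the filter, and ValRS-m its wild-type arrays. The cysteine and valine shifts are therefore in part set by the filter. TrpRS and TrpRS-m exceeded 42.9 on every wild-type array. TrpRS minus TrpRS-m lay between -2.52 and -2.27 on the wild-type arrays, between 1.20 and 2.09 on those of bgcn, and between 1.05 and 2.07 on those of Os+bgcn. The mutants overlapped each other and neither came near wild type. The shift was 4.02 in bgcn (exact permutation p = 0.0079, the smallest that 5 against 5 arrays can give, adjusted p = 0.024) and 4.05 in Os+bgcn (exact permutation p = 0.0022, the smallest that 6 against 5 can give, adjusted p = 0.015). The cysteine pair, at -5.37 to -4.07 in wild type, moved to between -0.52 and 0.27 in bgcn and between -0.94 and -0.09 in Os+bgcn, shifts of 4.23 and 3.94 with the same p-values. The valine pair, at -2.47 to -1.96 in wild type, moved to -0.73 to 2.12 and to 1.28 to 2.89, shifts of 3.10 and 3.93, again with the same p-values. In bgcn the valine shift no longer passed without wild-type array 5 (3.06, exact permutation adjusted p = 0.054). Scaling the signals to a common array median or to cytosolic ribosomal proteins before the transformation, or quantile normalization, chosen after seeing the data, left the 3 pairs passing in both mutants, with shifts of 3.22 to 4.87.

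The isoleucine pair shifted the same way, and there both genes rose. IleRS minus IleRS-m lay between 0.60 and 0.99 in wild type, and reached 1.73 to 2.78 in bgcn, then 1.71 to 2.07 in Os+bgcn, shifts of 1.43 (exact permutation adjusted p = 0.024) and 1.04 (adjusted p = 0.015) without overlap with wild type. The serine pair passed in Os+bgcn with a shift of 1.05 (exact permutation p = 0.0065, adjusted p = 0.024) and overlapping arrays, beside 0.59 in bgcn (adjusted p = 0.23), and the difference between the mutants did not pass. Averaging both SerRS probe sets turned the Os+bgcn shift to -0.14 (exact permutation adjusted p = 0.88). The call was also lost without any of Os+bgcn arrays 1, 2, 3, 5 and 6 (0.90 to 1.11, exact permutation adjusted p = 0.071), without wild-type array 5 (0.80, adjusted p = 0.057), with no pseudocount (0.46, adjusted p = 0.59) and with signals scaled to a common median (0.96, adjusted p = 0.058) or to ribosomal proteins (0.63, adjusted p = 0.38). The asparagine, leucine, proline and tyrosine pairs did not pass, with shifts of 0.58, 0.72, -0.39 and 0.71 in bgcn and of 0.38, 0.36, 0.24 and 0.52 in Os+bgcn (exact permutation adjusted p from 0.15 to 0.63). With 5 or 6 arrays per group, that does not show that these pairs moved together.

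**Figure D4:**
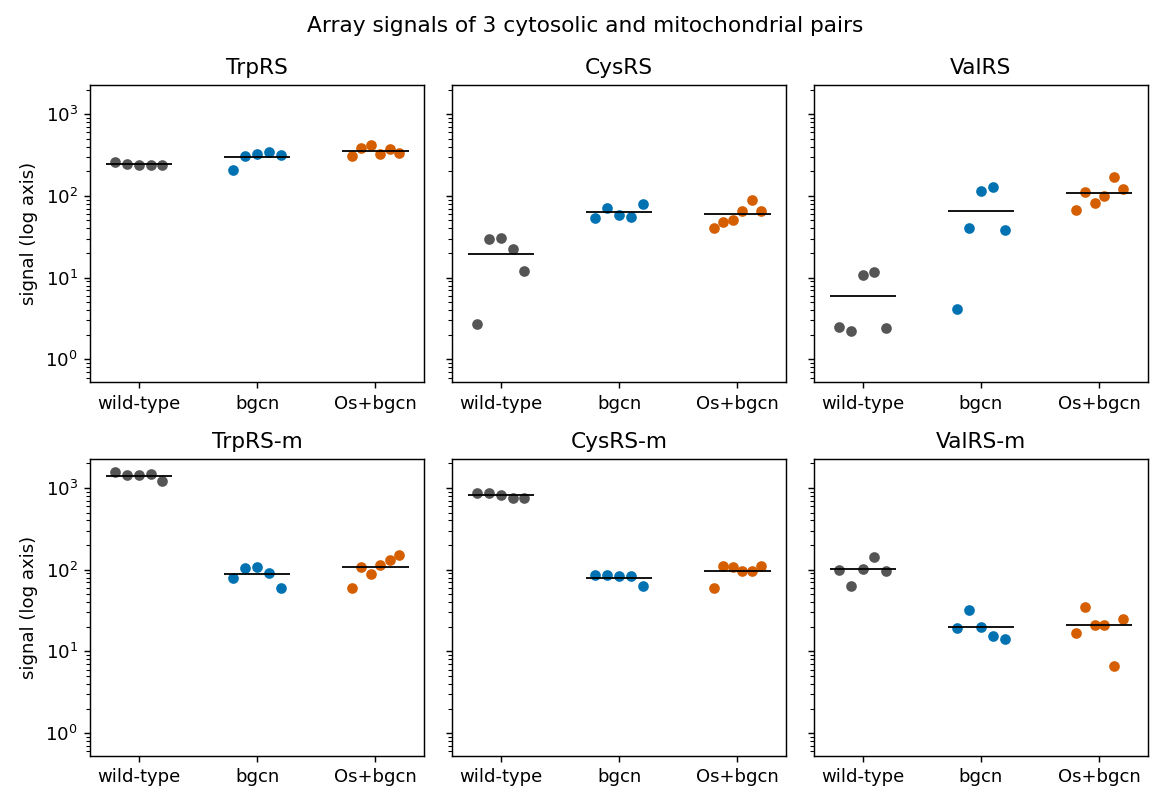
Signal of each array on a log axis for the cytosolic gene (upper row) and the mitochondrial gene (lower row) of tryptophan, cysteine and valine, by genotype, with a line at each group mean. The mitochondrial gene is highest in wild type for all 3 amino acids, while the cytosolic gene is lowest there for CysRS and ValRS by group means and TrpRS changes little (0.26 in bgcn, 0.51 in Os+bgcn).

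**Figure D5:**
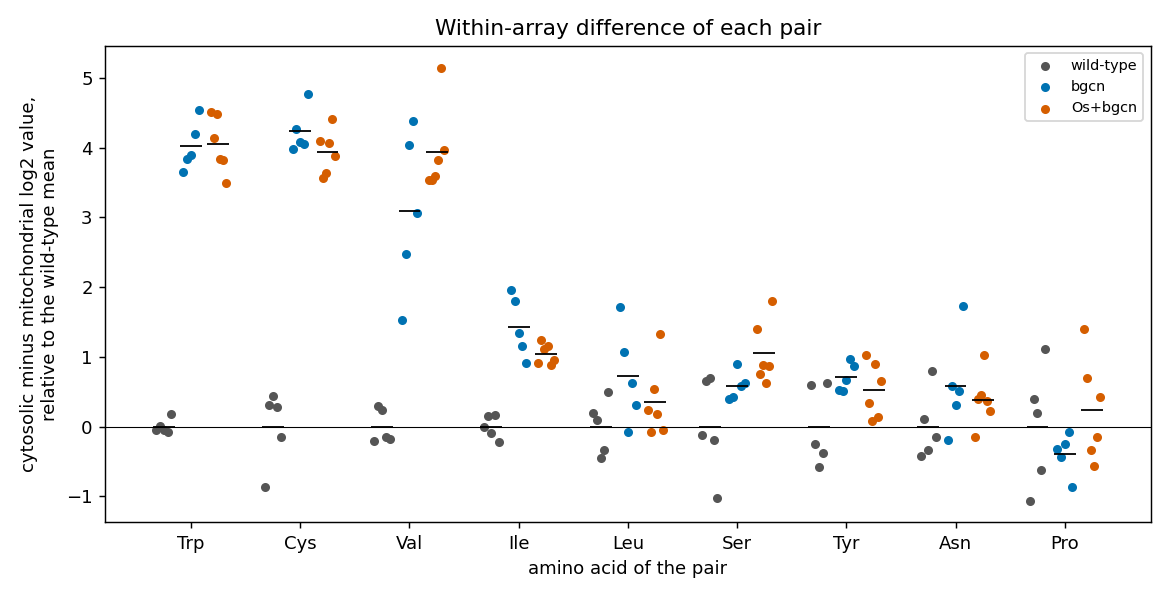
Within-array log2 value of the cytosolic gene minus that of the mitochondrial gene, for 9 amino acids, set relative to the wild-type mean of each pair; points are arrays and lines are group means. The shifts of the tryptophan, cysteine and valine pairs are between 3.10 and 4.23, and those of the other 6 between -0.39 and 1.43.

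The comparison of both mutants asks what differed when Os was added in testes already mutant for bgcn. The bgcn samples pooled 750 testes and the Os+bgcn samples 150, so pool size and the addition of Os cannot be told apart here. Few synthetase genes passed. Of the 28 tested, 3 rose, none fell (0 also at an unadjusted limma p under 0.05) and 25 did not pass, where 20.5% of all tested probe sets passed, 11.6% higher and 8.91% lower. The median change was 0.25 beside 0.03 for all tested probe sets, and 24 of 28 values were positive. Cytosolic genes had a median of 0.34, from -0.16 to 0.84, and mitochondrial genes one of 0.21, from -0.29 to 0.71. The accessory gland median as a covariate gave 0.10 and 0.25, beside 0.03 for all tested probe sets. Leaving out bgcn arrays 1 and 2 gave 0.22 and 0.26, beside 0.06. With arrays centred on cytosolic ribosomal proteins the median of all probe sets was 0.56. The share of called probe sets that were higher went from 56.6% to 91.2%. Of the 28 synthetase genes 9 passed, beside 2504 of the 10422 probe sets.

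The 3 genes were ThrRS, IleRS-m and LysRS. ThrRS, whose arrays are given above, rose by 0.71 ± 0.13 (adjusted p = 0.00042) from 698 ± 88.9 (SD, n = 5) in bgcn to 1161 ± 194 (n = 6) in Os+bgcn, and every Os+bgcn array was above every bgcn array. IleRS-m rose by 0.71 ± 0.18 (adjusted p = 0.009) from 75.78 ± 18 (SD, n = 5) to 134 ± 8.21 (n = 6), also without overlap. LysRS rose by 0.54 ± 0.16 (adjusted p = 0.022), but its lowest Os+bgcn array, at 316, lay within the bgcn range. It no longer passed without bgcn array 2 (0.50, adjusted p = 0.059) or without Os+bgcn array 4 (0.45, adjusted p = 0.056). GluProRS, at 0.35 ± 0.21 (adjusted p = 0.28), did not pass although its Os+bgcn arrays were all above the bgcn ones. In all, 3 of the 28 genes had groups without overlap, beside 13.1% of tested probe sets.

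Markers of other tissue moved with this comparison. The 13 accessory gland and ejaculatory duct markers all fell in Os+bgcn, and their array medians were 8.12 to 10.70 in bgcn, highest on bgcn arrays 1 and 2, and 5.25 to 7.74 in Os+bgcn on the log2 scale. Their summed signal ran from 4439 to 23600 on the bgcn arrays and from 525.9 to 3164 on the Os+bgcn arrays. Of muscle sheath markers 7 of 10 fell, of hemocyte markers 4 of 6 and of fat body markers 2 of 4. With the accessory gland median as a covariate none of the 28 synthetase genes passed (4 at an unadjusted limma p under 0.05). Of all 10422 tested probe sets 567 passed with the covariate, against 2141 without it. With it ThrRS stood at 0.41 (limma adjusted p = 0.24), IleRS-m at 0.35 (adjusted p = 0.56) and LysRS at 0.58 (adjusted p = 0.24). Without bgcn arrays 1 and 2 only ThrRS of the 28 passed, beside 1674 of the 10422 probe sets. There LysRS was at 0.46 (limma adjusted p = 0.11) and IleRS-m at 0.52 (adjusted p = 0.081). None of the 9 pair shifts between the mutants passed, and 1 had an unadjusted p under 0.05, the serine pair at 0.47 (exact permutation adjusted p = 0.13). What part the other tissue has in these values was not tested beyond this.

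Within groups, the synthetase genes showed little common variation. After removal of group means, the median correlation between 2 member genes over the 16 arrays was 0.11 across 378 pairs, 0.10 within the cytosolic set, 0.09 within the mitochondrial set and 0.11 across the sets, beside 0.00 for pairs of all tested genes. As a description of arrays, the median change of the cytosolic genes against the wild-type mean was 1.52 to 2.21 on bgcn arrays and 1.98 to 2.49 on Os+bgcn arrays, and that of the mitochondrial genes 0.49 to 0.95 and 0.28 to 1.24.

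Genes that work beside the synthetases were followed by lists of known roles, under the authors' scaling. Of all tested probe sets 47.2% rose in bgcn and 47.3% in Os+bgcn, the background for these lists too. List genes with a wild-type mean under 42.9 needed their mutant arrays to pass the filter, so their rise is in part set by it. They include mEFTu1 (24.2), GatB (5.06), mIF2 (9.9), Tgt (12.4), Gcn2 (27.2), Shmt (15) and REPTOR (7.72). Of the scaffold proteins AIMP1, AIMP2 and AIMP3, which hold the complex together in mammals, 2 rose in bgcn and all 3 in Os+bgcn. AIMP3 rose by 1.72 ± 0.21 (adjusted p = 4e-07) in bgcn and 1.69 ± 0.20 (adjusted p = 2.4e-07) in Os+bgcn, and AIMP2 by 0.79 ± 0.12 (adjusted p = 8.4e-06) and 1.08 ± 0.12 (adjusted p = 6.2e-08). AIMP1 was at 0.14 ± 0.35 (adjusted p = 0.73) in bgcn and rose by 1.28 ± 0.33 (adjusted p = 0.0019) in Os+bgcn, and by 1.13 ± 0.33 (adjusted p = 0.02) over bgcn. Both subunits of the cytosolic phenylalanine enzyme, looked up after the other values were known, rose as well: alpha-PheRS by 1.34 ± 0.21 (adjusted p = 9.4e-06) and 1.81 ± 0.20 (adjusted p = 8.2e-08), and beta-PheRS by 1.81 ± 0.22 (adjusted p = 3.5e-07) and 2.22 ± 0.21 (adjusted p = 7.9e-09).

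Of 9 tested factors that make or use charged tRNA in mitochondria, 5 rose and 2 fell in bgcn, and 6 rose and 2 fell in Os+bgcn, shares near the 47.2% and 22.6%, and the 47.3% and 24.2%, of all tested probe sets. The 2 that fell were mEFTs, the exchange factor that recycles elongation factor Tu, by 2.73 ± 0.13 (adjusted p = 2.7e-13) and 2.78 ± 0.13 (adjusted p = 8.7e-14), and mEFTu2, by 2.08 ± 0.10 (adjusted p = 5.2e-13) and 1.95 ± 0.10 (adjusted p = 6.0e-13). mEFTu1, the other gene of elongation factor Tu, which delivers charged tRNA to the ribosome, rose by 3.00 ± 0.34 (adjusted p = 1.2e-07) and 3.37 ± 0.32 (adjusted p = 1e-08). GatB, a subunit of the amidotransferase, rose by 1.73 ± 0.15 (adjusted p = 2.7e-09) and 2.53 ± 0.14 (adjusted p = 3.1e-12), and by 0.80 ± 0.14 (adjusted p = 0.00052) in Os+bgcn over bgcn. The initiation factor mIF2 rose by 1.19 ± 0.20 (adjusted p = 3e-05) and 1.58 ± 0.20 (adjusted p = 4.2e-07). Of 63 mitochondrial ribosomal proteins, gathered by name afterwards, 54 rose and 2 fell in bgcn (median 1.23), and 56 rose and 2 fell in Os+bgcn (median 1.50).

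In the cytosol, 4 of 5 elongation factors rose in each mutant, eEF1gamma by 2.78 ± 0.13 (adjusted p = 2.4e-13) and 2.78 ± 0.13 (adjusted p = 9.8e-14) and eEF1delta by 2.43 ± 0.13 (adjusted p = 1.1e-12) and 2.57 ± 0.12 (adjusted p = 1.9e-13), both subunits of the exchange factor for the protein that carries charged tRNA. eEF5, a translation factor that relieves stalled ribosomes, rose by 1.46 ± 0.23 (adjusted p = 8.9e-06) and 0.71 ± 0.22 (adjusted p = 0.0063) but was lower in Os+bgcn than in bgcn by -0.75 ± 0.22 (adjusted p = 0.018). Cytosolic ribosomal proteins, also gathered by name, had medians of 2.02 and 1.62, with 35 and 33 of 37 higher and 2 lower in each, beside the cytosolic synthetase medians of 1.84 and 2.32. These are the probe sets on which the alternative centring rests.

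Genes of tRNA processing and modification mostly rose, 11 of 11 in bgcn and 10 of 11 in Os+bgcn, with medians of 1.37 and 1.38. Tgt, which exchanges guanine for queuine in the anticodon of some tRNAs, rose by 2.60 ± 0.19 (adjusted p = 2.2e-10) and 2.97 ± 0.18 (adjusted p = 1.1e-11). RtcB, the ligase that joins the exons of spliced tRNA, rose by 2.11 ± 0.14 (adjusted p = 7.3e-11) and 1.91 ± 0.14 (adjusted p = 1.3e-10). Of RNA polymerase III, which transcribes tRNA genes, 8 of 10 tested genes rose in bgcn (median 1.05) and all 10 in Os+bgcn (median 1.88). Polr3A, Polr3B, Polr3C, Polr3D, Polr3I, Brf and Tbp had wild-type means of 4.6 to 42.4, under the filter signal of 42.9. Their rise is therefore in part set by the filter. Polr3D rose by 2.13 ± 0.22 (adjusted p = 3e-08) and 2.41 ± 0.21 (adjusted p = 2.1e-09), and Brf, a TFIIIB subunit, by 1.19 ± 0.39 (adjusted p = 0.011) and 2.21 ± 0.38 (adjusted p = 2.6e-05). Between the mutants Polr3A was higher in Os+bgcn by 1.39 ± 0.28 (adjusted p = 0.0014) and Polr3B by 0.94 ± 0.21 (adjusted p = 0.0035). These were 2 of the 10, where 11.6% of probe sets rose. Their bgcn means, 22.6 and 36.8, were under 42.9 too. Both genes needed their Os+bgcn arrays to pass the filter, so this difference is also in part set by it. Calls of list genes between the mutants, here and in the other lists, were not followed with the accessory gland covariate. With it 567 of all 10422 probe sets passed in this comparison, against 2141 without it.

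Regulators known to act on synthetase genes or on amino acid supply were mixed between the mutants. In the amino acid starvation and ATF4 list 6 of 8 tested genes rose in each mutant, with medians of 1.44 and 1.33. Gcn2, the kinase that senses uncharged tRNA, rose by 1.93 ± 0.27 (adjusted p = 2.2e-06) and 2.00 ± 0.26 (adjusted p = 7e-07). crc, the fly ATF4, rose by 1.45 ± 0.15 (adjusted p = 3e-08) and 0.97 ± 0.14 (adjusted p = 3.9e-06), and was lower in Os+bgcn than in bgcn by -0.48 ± 0.14 (adjusted p = 0.021). Shmt, of serine and glycine metabolism, rose by 2.66 ± 0.34 (adjusted p = 6.8e-07) and 3.67 ± 0.32 (adjusted p = 2.9e-09), and by 1.01 ± 0.32 (adjusted p = 0.032) between the mutants. P5CS, of proline synthesis, rose by 1.44 ± 0.19 (adjusted p = 8.2e-07) in bgcn, was at 0.39 ± 0.18 (adjusted p = 0.059) in Os+bgcn, and was lower in Os+bgcn than in bgcn by -1.05 ± 0.18 (adjusted p = 2.7e-04). Of 8 tested Myc and TOR growth genes, 7 rose in bgcn (median 0.97) and all 8 in Os+bgcn (median 1.02), among them RagC-D, a GTPase that couples amino acids to TORC1, by 1.65 ± 0.18 (adjusted p = 5.7e-08) and 2.44 ± 0.17 (adjusted p = 6.1e-11), and REPTOR, a factor that TORC1 holds in check, by 2.13 ± 0.18 (adjusted p = 2.2e-09) and 3.04 ± 0.17 (adjusted p = 3.7e-12). Both also rose in Os+bgcn over bgcn, by 0.79 ± 0.17 (adjusted p = 0.0021) and 0.91 ± 0.17 (adjusted p = 0.00092).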

How the data were processed

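The members, the gene lists and the tests were chosen with earlier results of these data known. The deposited values are linear signal intensities of the probe sets, which the authors made with MAS5 per the submitters' processing notes; version: not given in the sources used here. Groups follow the sample titles. For wild type the labels' extraction protocol names bgcn testes, yet markers of spermatids set these arrays apart from those of bgcn. Arrays had median signals of 56.2 to 59.4 (wild type), 67.8 to 74.2 (bgcn) and 66.95 to 74.5 (Os+bgcn), and log2 values of tested probe sets correlated at 0.932 to 0.944, 0.870 to 0.960 and 0.919 to 0.958 within groups. The upd1 signal, a check of the Os label, was 11.6 ± 6.28 (SD, n = 5) in wild type, 9.6 ± 4.31 (n = 5) in bgcn and 396 ± 128 (n = 6) in Os+bgcn. The bgcn transcript itself passed in neither mutant against wild type, so it gave no check of the bgcn label. The number of arrays limits the precision.

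Of the probe sets, 12442 carry 1 gene symbol, 327 several and 1197 none in the platform annotation; all 34 members matched the RefSeq gene table (Release 6 plus ISO1 MT) by gene identifier, and that table served for names and neighbours. Values were transformed to log2(signal + 18.8), the pooled 25th percentile, and testing required a signal over 42.9 (the 40th percentile of all values) on 5 arrays or more. A model with 1 coefficient per genotype was fitted to 16 arrays with limma 3.58.1 in R 4.3.3 (lmFit, eBayes with intensity trend), adjusted by Benjamini-Hochberg over 10422 probe sets per comparison, with a threshold of 0.05; ± is the standard error for log2 changes. Pairs were tested by two-sided exact permutation over arrays. The procedure was tested on simulated data. Every member gene is named, with array values for those that a comparison or a pair turns on, and from each list called genes of largest change, with the choice among these made once their values were known. Alternatives were 3 other scalings, 2 pseudocounts, 2 filters, no intensity trend, fits of the 2 groups alone, the mean of a gene's probe sets, the accessory gland median as covariate, the replicate number as a block, leaving out bgcn arrays 1 and 2 or each array in turn, and, chosen after seeing the data, the other probe set of a gene and, for pairs, 3 scalings. Figures were drawn with matplotlib 3.10.9 and tables made with pandas 2.3.3 in Python 3.11.15.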

Additional observations from a re-analysis of the deposited data

Results flagged for a closer look

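Within each genotype, the array farthest from the others was compared with the spread of its group for all 30 genes, 90 groups of arrays in all. In 6 of them a single array stood apart, where chance gives about 1 in 20. TrpRS was at 205.3 on bgcn array 1 and at 305.3 to 348.7 on the other bgcn arrays. CysRS-m was at 62.3 on bgcn array 5 against 82.5 to 86.3, and at 60.2 on Os+bgcn array 1 against 95.2 to 110.3, in both cases far below the wild-type arrays. GluRS-m was at 23.6 on bgcn array 5 and at 2.3 to 3.2 on the others. MetRS-m was at 19.9 on Os+bgcn array 4 against 99.1 to 190.1. ProRS-m was at 80.6 on wild-type array 1 against 6.0 to 14.9.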

How the results depend on the processing

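Centring arrays on cytosolic ribosomal proteins moved most counts. In bgcn against wild type 14 genes then passed, 2 cytosolic higher and 4 lower, 0 mitochondrial higher and 8 lower. Of all 10422 probe sets 7944 passed there, 3.11% of them higher. Signs turned for AsnRS (-0.13), CysRS (-0.86), GlnRS (-0.75), GluProRS (-1.0), HisRS (-0.08), LysRS (-0.37), ThrRS (-0.22), TrpRS (-1.76), TyrRS (-0.62), ValRS (-0.52), AsnRS-m (-0.72), AspRS-m (-1.29), IleRS-m (-0.86), LeuRS-m (-0.18), PheRS-m (-1.91), ProRS-m (-0.62), SerRS-m (-0.36) and TyrRS-m (-1.33). In Os+bgcn against wild type 15 genes passed, cytosolic 9 and 1, mitochondrial 0 and 5, beside 7046 probe sets, 13.2% of them higher. In that comparison signs turned for CysRS (-0.42), GluProRS (-0.13), TrpRS (-0.98), AspRS-m (-0.38), ProRS-m (-0.38) and TyrRS-m (-0.44). Between the mutants 9 passed, 7 cytosolic and 2 mitochondrial, all higher, beside 2504 probe sets, 91.2% of them higher. MetRS-m turned to 0.11 in bgcn with the mean of its probe sets, and to 1.06 and 1.36 with the other one, and the serine pair in Os+bgcn to -0.14 with mean probe sets. A stricter filter left 4 mitochondrial genes higher in each wild-type comparison, with fewer genes tested, and no filter gave 2 between the mutants. Between the mutants the accessory gland covariate left 0 genes, 0 cytosolic and 0 mitochondrial (4 at an unadjusted limma p under 0.05). Leaving out bgcn arrays 1 and 2 left 1, 1 and 0. Of all 10422 probe sets these settings left 567 and 1674. With a pseudocount of 100, 8, 8 and 1 pairs passed in the 3 comparisons. Without bgcn arrays 1 and 2, 0 pairs passed in bgcn against wild type (5 unadjusted, smallest exact adjusted p = 0.054), since 3 arrays against 5 allow no smaller p. Other causes were not tested.

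Leaving out each array in turn gave, in bgcn against wild type, 25 to 26 genes, 15 to 16 cytosolic higher, 0 to 0 lower, 7 to 7 mitochondrial higher and 3 to 4 lower; in Os+bgcn against wild type 26 to 27, 16 to 16, 0 to 0, 7 to 7 and 3 to 4; between the mutants 2 to 6, 1 to 4, 0 to 0, 1 to 2 and 0 to 0. Without bgcn array 3 or 4 the last count was 6 or 5. Pairs passing were 3 to 4, 4 to 5 and 0 to 1. Replicate numbers did not pair the arrays: deviations of same-numbered arrays correlated at -0.11 to 0.20, 1 of 15 over 0.1. With the replicate block 15 cytosolic genes rose and 7 mitochondrial rose and 4 fell in bgcn, 16, 7 and 4 in Os+bgcn, where MetRS-m passed at -0.85 (limma adjusted p = 0.020), and 2 and 1 rose between the mutants. Dim genes are limited by signal over background, since values near the added 18.8 carry little information.

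Other signs turned in values that passed under neither setting. In bgcn against wild type they were PheRS-m (-0.14) with median centring, the serine pair (-0.37) with mean probe sets, and PheRS-m (-0.04) with quantile normalization. Also turned were the asparagine pair (-0.16), the leucine pair (-0.05) and the serine pair (-0.03) with no pseudocount, the asparagine pair (-0.12) with signals scaled to ribosomal proteins, and the proline pair (0.07) with a pseudocount of 100. In Os+bgcn against wild type they were MetRS-m (0.35) with mean probe sets, the asparagine pair (-0.46), the leucine pair (-0.46) and the proline pair (-0.32) with no pseudocount, and the asparagine pair (-0.17), the leucine pair (-0.10) and the proline pair (-0.20) with signals scaled to ribosomal proteins. Between the mutants they were AlaRS (-0.07), AsnRS (-0.07), GlnRS (-0.18), HisRS (-0.13), LeuRS (0.24) and MetRS-m (-0.16) with the accessory gland covariate, CysRS (0.44), LeuRS (0.37), PheRS-m (0.39) and ProRS-m (0.24) with ribosomal protein centring, and SerRS-m (-0.02) and ValRS-m (-0.02) with median centring. Also turned were LeuRS (0.02) with mean probe sets, LeuRS (0.20) and TyrRS (-0.14) with the other probe set, and SerRS-m (0.00) and the tryptophan pair (-0.01) with quantile normalization. Also turned were MetRS-m (-0.02) and ValRS-m (-0.02) with the replicate block, AlaRS (0.00), AsnRS (-0.13), LeuRS (0.24), SerRS-m (-0.14), the leucine pair (0.08) and the tryptophan pair (-0.16) without bgcn arrays 1 and 2, and ValRS-m (-0.04) with no pseudocount. Leaving out single arrays, uncalled values crossed 0 for PheRS-m from -0.01 to 0.29 in bgcn against wild type. The range also spanned 0 for PheRS-m from -0.14 to 0.10 and the proline pair from -0.02 to 0.52 in Os+bgcn against wild type. The range also spanned 0 for AsnRS from -0.02 to 0.21, LeuRS from -0.34 to 0.12, MetRS-m from -0.07 to 0.47, SerRS-m from -0.11 to 0.20, ValRS-m from -0.09 to 0.13, the asparagine pair from -0.39 to 0.08 and the tryptophan pair from -0.07 to 0.16 between the mutants.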

Other observations

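The genes nearest to the synthetases in the genome were read from the gene table as context. TyrRS and GluRS-m are nearest neighbours on 3L, and TyrRS rose in both mutants while GluRS-m was below the filter. ArgRS-m overlaps mRpS9, a mitochondrial ribosomal protein gene. ProRS-m overlaps CG1246, whose own signal was low in all groups, at 25.7 ± 7.22 (SD, n = 5) in wild type, 31.6 ± 8.37 (n = 5) in bgcn and 28.5 ± 7.15 (n = 6) in Os+bgcn. The bgcn arrays 1 and 2, brightest in accessory gland markers, stood together for LeuRS and HisRS: for LeuRS they were 932 and 461, the highest of the bgcn arrays, and for HisRS 314 and 318, the lowest. Over the cytosolic set they had the lowest median changes of the bgcn arrays, 1.52 and 1.59 beside 1.87, 2.01 and 2.21.

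Markers of the testis itself also differed between the mutants. Of 5 tested cyst lineage markers 4 rose and 1 fell in Os+bgcn against bgcn, with summed signals of 1934 to 2594 and 695.9 to 772.5, and of 6 early germ cell markers 4 rose. Of 3 tested hub markers, upd1 among the listed genes, 2 rose and 1 fell.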
